A study of Schizosaccharomyces pombe with 16 samples.

Results

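The gene fbp1 (SPBC1198.14c) of the fission yeast Schizosaccharomyces pombe was followed by RNA-seq across 16 libraries of 6 groups. It was found by its systematic name and is 1 of 7019 features in the count table. It lies on the minus strand of chromosome II at 197660 to 199474 in the ASM294v2 annotation used for counting, a feature of 1815 bases. Wild type (WT) h- cells were grown in yeast extract medium with 3% glucose or 3% sucrose, in glucose-deficient medium (3% glycerol plus 0.1% glucose), or glucose-starved (3% glycerol as the only addition), with 2 libraries per medium. The scr1- mutants, which lack the glucose-dependent repressor Scr1, were grown only in 3% glucose or 3% sucrose. They comprised 2 libraries per medium of the disruption scr1::ura4+ in an h- ura4-d18 leu1-32 ade6-m216 background, and 2 per medium of the deletion scr1::kanMX6+, 1 from each of 2 deletion strains. The extra ura4, leu1 and ade6 alleles of the disruption strain are absent from the WT genotype label, so in that strain their part and that of scr1 cannot be told apart. All cultures were first grown in 3% glucose, washed and moved to the test medium at 32 degrees for the same time, and the study's methods describe the replicates as independent biological ones.

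Fructose-1,6-bisphosphatase, the product of fbp1, removes 1 phosphate from fructose-1,6-bisphosphate to give fructose-6-phosphate. Glycolysis runs the opposite reaction with phosphofructokinase (pfk1), so a cell that feeds on glycerol needs Fbp1 to make hexose phosphate, and a cell with ample glucose does not. In fission yeast the gene is a classic reporter of glucose repression. Glucose acts through the cAMP-dependent protein kinase Pka1 to hold down the activator Rst2, the stress-activated kinase Sty1 acts through the CRE-binding factors Atf1 and Pcr1, and Scr1 and the corepressors Tup11 and Tup12 act negatively. Longer non-coding transcripts that start upstream and read toward the gene are also known at this locus.

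The promoter is shown because the regulators named above are followed later. The sequence was read from RefSeq assembly ASM294v3, in which the fbp1 gene runs from 197660 to 199369 with the coding exon at 198099 to 199142. The window below covers chromosome II 199320 to 199619 on the minus strand, from 250 bases before to 50 after the RefSeq gene start, with capitals marking a TATAAA match 71 bases and a match to the Scr1 motif 11 bases before that start.
fbp1 promoter: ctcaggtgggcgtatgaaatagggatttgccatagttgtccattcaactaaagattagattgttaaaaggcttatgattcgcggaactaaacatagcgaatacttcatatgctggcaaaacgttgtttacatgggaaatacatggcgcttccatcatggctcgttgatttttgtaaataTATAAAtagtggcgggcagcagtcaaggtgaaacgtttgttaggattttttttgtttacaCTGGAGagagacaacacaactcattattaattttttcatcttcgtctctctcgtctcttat
Farther upstream, on both strands of the 1500 bases before the gene start, the motifs searched matched in these stretches, with the match in capitals and each stretch written on the fbp1 strand.
Rst2 motif, 307 bases before the start, II 199659 to 199688: tttcattgcaagCCCCTCgttttttgaaga
CRE core on the other strand, 940 bases before, II 200292 to 200321: tcccaatcatctACGTCAcaaagcattagt
Scr1 motif on the other strand, 1028 bases before, II 200380 to 200409: cgaatttattttCTCCACttctttctatat

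The Rst2 motif was searched as CCCCTC and occurred in the same 1500-base window of 11.9% of 5112 protein-coding genes. The CRE core of Atf1 and Pcr1 was searched as TGACGT and occurred in 21.4%. The Scr1 motif, read in order as C or G, C or T, G, G, A or G, G, occurred in 69.2% of the 1500-base windows and in 18.9% of the 300-base windows. CCAAT, the core bound by the HAP complex that Php2, Php3 and Php5 form, had 2 matches in the 1500-base window and 0 in the 300-base window of fbp1. The corresponding shares of all promoters were 95.6% and 42.2%. TATAAA occurred in 48.1% of the 300-base windows. These matches describe the letters only.

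The libraries fell into 3 preparation batches. Batch A (5 libraries: replicate 1 of WT in glucose, sucrose and glucose-deficient medium, and replicate 1 of scr1::ura4+ in both media) was unstranded, and batches B and C (11 libraries) were stranded. Totals of assigned counts ran from 14305848 to 18607823. Non-coding features took 9.49% to 9.99% of the counts in the unstranded libraries and 1.82% to 4.89% in the stranded libraries. The scr1 feature could not check the mutant labels. For the deletion, 51.8% of its bases lie outside the deleted coding part. The feature read 88.8 to 112 CPM in the deletion and 109 to 125 CPM in the disruption, against 20.8 to 35.7 CPM in WT glucose and sucrose. CPM is the depth-scaled count after TMM scaling, a correction for the make-up of each library. All 9 mating-type markers examined had counts in every library. The summed level of the 3 P-cell genes ran from 34.6 to 200.4 CPM. That of the 6 M-cell genes was 137 to 158 CPM in WT glucose, 168 to 169.6 in WT sucrose, 550 to 798 in glucose-deficient and 107 to 132 in glucose-starved cells, and 110.5 to 626 in the mutants. Of the P-cell genes, map2 had a mean of 61.8 CPM over both WT glucose libraries but 3.50 CPM in the stranded one. For map3 these values were 36.3 and 16.5 CPM, and for map4 25.6 and 27.9 CPM. The part of these markers in the fbp1 results was not tested.

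Strand matters for fbp1. The annotated antisense transcript SPNCRNA.1324, on the plus strand at 197369 to 200995, covers all 1815 bases of the gene. In an unstranded library reads from fbp1 and from SPNCRNA.1324 cannot be told apart, and the study's counting assigned a read to every feature it overlapped. A neighbour differed widely between unstranded and stranded libraries, but all unstranded libraries are batch A, so strandedness and batch cannot be told apart there. The meiotic regulator gene mfr1 lies opposite tfg2, which encodes a subunit of general transcription factor TFIIF, and had 175 to 282 counts in the 5 unstranded libraries but 1 to 8 in the 11 stranded libraries. Each fbp1 comparison is therefore given over all libraries and over the stranded libraries alone.

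In WT cells fbp1 was near the bottom of the expressed genes in glucose and sucrose, intermediate in glucose-deficient medium, and among the most abundant messages after glucose starvation. In WT glucose it had 256 counts in the unstranded library and 72 in the stranded library, or 12.4 and 4.13 CPM. In WT sucrose it had 242 and 109 counts, or 12.04 and 6.70 CPM. In both media the unstranded library was the higher one, and the 2 media overlapped. In glucose-deficient medium it had 824 counts (44.3 CPM) in the unstranded library of batch A and 3386 counts (237 CPM) in the stranded library of batch C. In glucose-starved cells both libraries were stranded, with 20990 counts (1407 CPM) in batch B and 20511 (1798 CPM) in batch C. The lowest glucose-deficient library stood above every glucose and sucrose library, and the lower glucose-starved library stood above both glucose-deficient libraries.

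In the scr1- mutants fbp1 overlapped the WT levels in glucose and sucrose. In glucose the scr1::ura4+ libraries gave 208 counts (12.2 CPM, unstranded) and 74 counts (5.32 CPM, stranded). The 2 scr1Δ libraries gave 122 and 58 counts, or 7.99 and 4.03 CPM. In sucrose the scr1::ura4+ libraries gave 238 counts (12.9 CPM, unstranded) and 90 counts (6.32 CPM), and the scr1Δ libraries reached 8.41 and 6.66 CPM. Mutant and WT values overlapped in both media, and in each mutant group the highest library was the unstranded one. For the library with the fewest fbp1 reads, the 58 counts carry a 95% exact Poisson interval of 44.0 to 75.0, which covers counting error only.

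**Figure D1:**
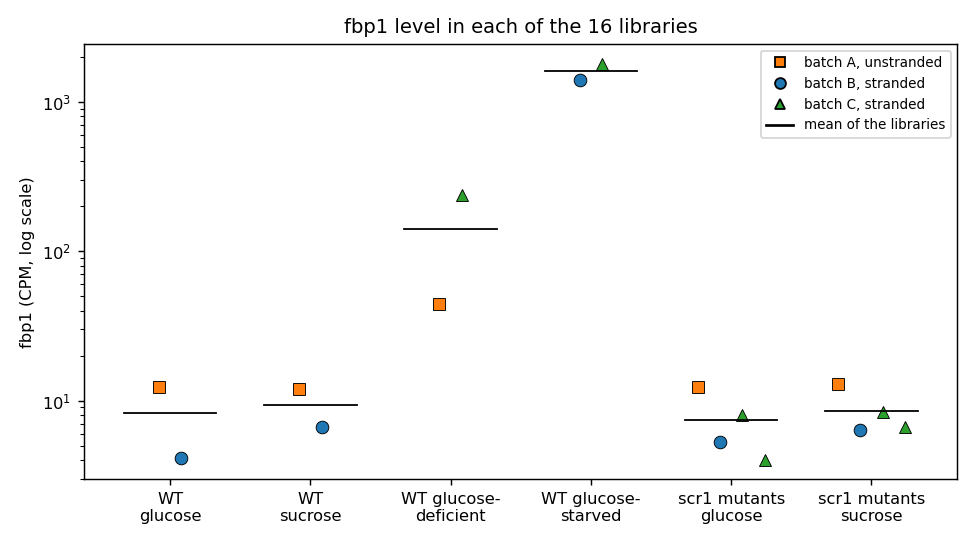
Level of fbp1 in CPM (log axis) in each of the 16 libraries, by group; squares, circles and triangles mark batches A, B and C and the bar is the group mean. The 4 groups of WT and scr1- libraries in glucose or sucrose lie between 4.03 and 12.9 CPM, glucose-deficient cells at 44.3 and 237 CPM and glucose-starved cells at 1407 and 1798 CPM.

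Group means with their spread were 8.24 ± 5.82 CPM in WT glucose, 9.37 ± 3.78 in WT sucrose, 140.4 ± 136 in glucose-deficient and 1602 ± 276 in glucose-starved cells (SD, n = 2 each). The mutants had 7.396 ± 3.63 CPM in glucose and 8.56 ± 3.00 CPM in sucrose (SD, n = 4 each). By these means the order of the 6 groups from the top was glucose-starved, glucose-deficient, WT sucrose, scr1- sucrose, WT glucose and scr1- glucose. Neighbours among the lower 4 did not differ beyond their spread. In these 4 groups 1 library was unstranded, of 2 in WT and of 4 in the mutants. Over stranded libraries the mutant means were 5.78 CPM in glucose and 7.13 in sucrose (n = 3 each). The 1 stranded WT library per medium was lower, at 4.13 and 6.70 CPM.

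Relative to other genes the change was also wide. Divided by feature length, fbp1 ranked 179th and 205th of 5172 protein-coding genes in the 2 glucose-starved libraries. It ranked 2855th in the unstranded and 820th in the stranded glucose-deficient library. In the 12 glucose and sucrose libraries of WT and mutants it ranked between 4710th and 4893rd, so that between 5.39% and 8.93% of the genes were lower.

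Which media raise fbp1 was tested with edgeR's quasi-likelihood test on 6691 features, with batch in the model and Benjamini-Hochberg adjustment over all of them. A feature was called at an adjusted p under 0.05 and an absolute log2 fold change above 1. From glucose to glucose starvation fbp1 rose, with a log2 fold change of 7.83 (SE 0.85) and an edgeR adjusted p of 1.05e-05. The ratio of mean CPM was 194, in a comparison that called 40.7% of all features (20.7% higher and 20% lower). Both libraries of batch B alone gave a 341-fold difference. Over the stranded libraries the change was 8.46 (SE 0.54, edgeR adjusted p = 8.29e-05), with 37.3% of features called. Among 5134 protein-coding genes the change of fbp1 was the 20th highest.

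The glucose-deficient medium also raised fbp1, by an amount that depended on the library. The log2 change against glucose was 3.97 (SE 0.76, 95% interval 2.31 to 5.64, edgeR adjusted p = 0.00579), in a comparison that called 7.58% of all features (3.87% higher and 3.71% lower), and it was again the 20th highest of 5134. Within batch A, where both libraries were unstranded, the difference was 3.58-fold, a log2 difference of 1.83. The stranded glucose-deficient library of batch C was 57.3-fold above the stranded glucose library of batch B, and the edgeR fit over stranded libraries gave 5.58 (SE 0.51, adjusted p = 0.00442), with 9.2% of features called. In that fit each of these media has 1 library, whose spread is assumed to be like that of the other groups. WT glucose is there only in batch B and glucose-deficient medium only in batch C. The batch term rests on the glucose-starved libraries and on the mutants, which are scr1::ura4+ in batch B and scr1Δ in batch C. In that part of it allele and batch cannot be told apart. The glucose-deficient libraries differed from each other by 5.34-fold, and batch, strandedness and culture cannot be told apart in this difference. The call was lost when the mutants were left out of the fit (3.08, adjusted p = 0.198), with the scr1::ura4+ libraries as the only mutants (3.10, adjusted p = 0.078), with the scr1Δ libraries as the only mutants (3.09, adjusted p = 0.0528), and without the stranded WT glucose library (3.53, adjusted p = 0.0629). The 6 M-cell genes were also higher in sum in glucose-deficient than in glucose cells, with 0 of 6 called by edgeR, 4 at an unadjusted p under 0.05 and 2 called by DESeq2, and their part was not tested. Without the batch C library the fbp1 change held at 1.97 (adjusted p = 0.005), and without the batch A library at 5.27 (adjusted p = 1.11e-05).

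Complete removal of glucose raised fbp1 beyond the glucose-deficient level. The log2 difference between glucose-starved and glucose-deficient cells was 3.86 (SE 0.71, edgeR adjusted p = 0.000609), where 35.9% of all features were called. Within batch C it was 7.6-fold, a log2 difference of 2.93. Over stranded libraries it was 2.88 (SE 0.40, adjusted p = 0.00179), with 31% of features called. Leaving out the batch C glucose-deficient library moved it to 6.21. Sucrose against glucose gave 0.26 in WT (SE 0.67, 95% interval −1.21 to 1.72, edgeR adjusted p = 1), a comparison in which 0.0149% of all features were called. Over stranded libraries it was 0.70 (SE 0.44, interval −0.33 to 1.73, adjusted p = 1).

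Loss of scr1 did not bring a detectable change of fbp1 in glucose or sucrose. In glucose the log2 difference between scr1- mutants and WT was −0.17 (SE 0.61, 95% interval −1.50 to 1.16, edgeR adjusted p = 0.936), in a comparison that called 1.84% of all features, 1.27% higher. In sucrose it was −0.21 (SE 0.61, interval −1.54 to 1.12, adjusted p = 0.895), with 1.57% called, 0.986% higher. The stranded libraries narrowed these intervals to −0.62 to 1.24 and −0.99 to 0.80, around 0.31 and −0.09, with 0.926% and 0.471% of features called. With the scr1Δ libraries as the only mutants the estimates were −1.68 (adjusted p = 0.453) and −1.59 (adjusted p = 0.434). Within batches, scr1::ura4+ over WT in glucose was 0.99-fold in batch A and 1.29-fold in batch B, and in sucrose 1.07-fold and 0.943-fold. The difference of the scr1 effect between the media was −0.04 (SE 0.83, interval −1.85 to 1.77, edgeR adjusted p = 1), where 0.0149% of features were called, and −0.40 over stranded libraries (SE 0.51, interval −1.59 to 0.79, adjusted p = 1).

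**Figure D2:**
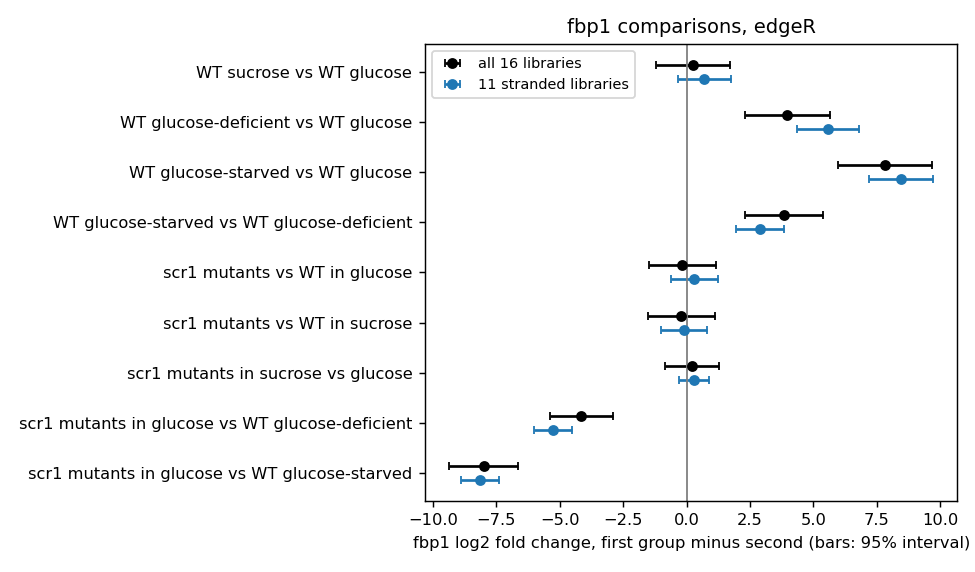
Log2 fold change of fbp1 in 9 comparisons (edgeR), first group minus second, with 95% intervals, for all 16 libraries (black) and for the 11 stranded libraries (blue). The 2 contrasts of scr1- mutants with WT in the same medium have intervals that span 0, and the glucose-starved contrasts with glucose lie at 7.83 and 8.46.

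Against the WT glycerol media the mutants in glucose were far lower. The log2 difference was −4.14 to glucose-deficient cells (SE 0.57, edgeR adjusted p = 0.00126, 4.6% of features called) and −8.00 to glucose-starved cells (SE 0.62, adjusted p = 5.98e-07, 41.4% called). Over stranded libraries they were −5.27 (SE 0.31, adjusted p = 0.00045, 7.21% called) and −8.15 (SE 0.31, adjusted p = 3.8e-06, 41.5% called). Within batch A the first of these was −1.85, and within batch C −5.35. With the scr1::ura4+ libraries as the only mutants it was −3.01 and lost its call (adjusted p = 0.15), and without the batch C glucose-deficient library it was −1.94 (adjusted p = 0.00594). The batch C glucose-deficient library held 29.6 and 58.7 times the fbp1 level of the 2 scr1Δ glucose libraries of the same batch. Sucrose against glucose within the mutants gave 0.22 (interval −0.84 to 1.27, edgeR adjusted p = 1), where 0% of features were called, 0 by DESeq2, and 108 of the 6691 had an unadjusted edgeR p under 0.05. Over stranded libraries it was 0.30 (interval −0.29 to 0.88, adjusted p = 1).

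The deletion and the disruption did not differ detectably. With batch in the model, scr1Δ minus scr1::ura4+ was −1.83 in glucose (SE 0.87, edgeR adjusted p = 0.296) and −1.65 in sucrose (SE 0.86, adjusted p = 0.346). Without batch these values were −0.55 and −0.35. All scr1Δ libraries belong to batch C, which has no scr1::ura4+ or WT library in these media, so allele and batch cannot be told apart.

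The antisense transcript SPNCRNA.1324 did not mirror the steep rise of fbp1. Over stranded libraries it had 16.1 CPM in WT glucose, 15.2 in WT sucrose, 3.91 in glucose-deficient medium and 20.8 and 9.64 in glucose-starved cells. The 6 stranded mutant libraries ranged from 10.5 to 18.6 CPM. Per kilobase, antisense signal was 1.95 times that of fbp1 in stranded WT glucose, and 0.00828 times that of fbp1 in the glucose-deficient library. In the glucose-starved libraries fbp1 was 135 and 373 times antisense per kilobase. The lowest antisense level, 56 counts, was in the glucose-deficient library. Its log2 change against glucose was −2.19 and did not pass the test (edgeR adjusted p = 0.0926, stranded libraries), and that of glucose-starved against glucose-deficient was 2.07 (adjusted p = 0.0326). With all libraries the latter was −0.01 (adjusted p = 0.995).

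A sum of both strands was set beside the unstranded values, a comparison chosen after seeing the data. The overlap takes 1815 of the 3627 bases of SPNCRNA.1324. Adding that share of its CPM to fbp1, which assumes even coverage, gave 12.2 CPM in stranded WT glucose against 12.4 in the unstranded library. It gave 14.3 against 12.04 CPM in WT sucrose, 11.4 against 12.2 in scr1::ura4+ glucose and 11.6 against 12.9 in scr1::ura4+ sucrose. In glucose-deficient medium the same sum was 239 CPM, against 44.3 in the unstranded library. The stranded sums lay close to the unstranded fbp1 values in the glucose and sucrose groups, and not in glucose-deficient medium. All unstranded libraries are batch A. They were set beside batch B in glucose and sucrose and beside batch C in glucose-deficient medium, so strandedness and batch cannot be told apart. The cause was not tested.

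Both annotated sense transcripts upstream of fbp1 were raised in starved cells. The non-coding fbp1-ot3 (SPNCRNA.1325, 199409 to 200559, minus strand) shares its last 66 bases with the fbp1 feature. A read that overlapped these bases counted for both features, and the part of such reads was not tested. The fbp1-ot3 feature had 1925 and 682 counts in the glucose-starved libraries, and 11 to 38 counts in the other 9 stranded libraries. In the unstranded libraries it had 78 to 218 counts, where the antisense transcript also overlaps it. From glucose to starvation it rose by 5.42 over all libraries (SE 0.52, edgeR adjusted p = 4.59e-06) and by 5.56 over the stranded ones (adjusted p = 0.000594). In glucose-deficient medium, where the stranded library held 237 CPM of fbp1, fbp1-ot3 had 32 counts (2.24 CPM) against 38 (2.18 CPM) in stranded glucose, and the change of 0.40 did not pass the test (adjusted p = 0.771).

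The transcript fbp1-ot2 (SPNCRNA.1326, 201348 to 201812, minus strand) starts farther upstream and shares no base with the other 2. It had 814 and 585 counts (54.6 and 51.3 CPM) in the glucose-starved libraries and 0 to 6 counts in the other 14. Within batch B the starved library was at least 317-fold higher than the floor of the glucose library, whose count was 0 and whose floor of 3 counts per library corresponds to 0.172 CPM. In the glucose-deficient libraries it had 2 and 1 counts.

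**Figure D3:**
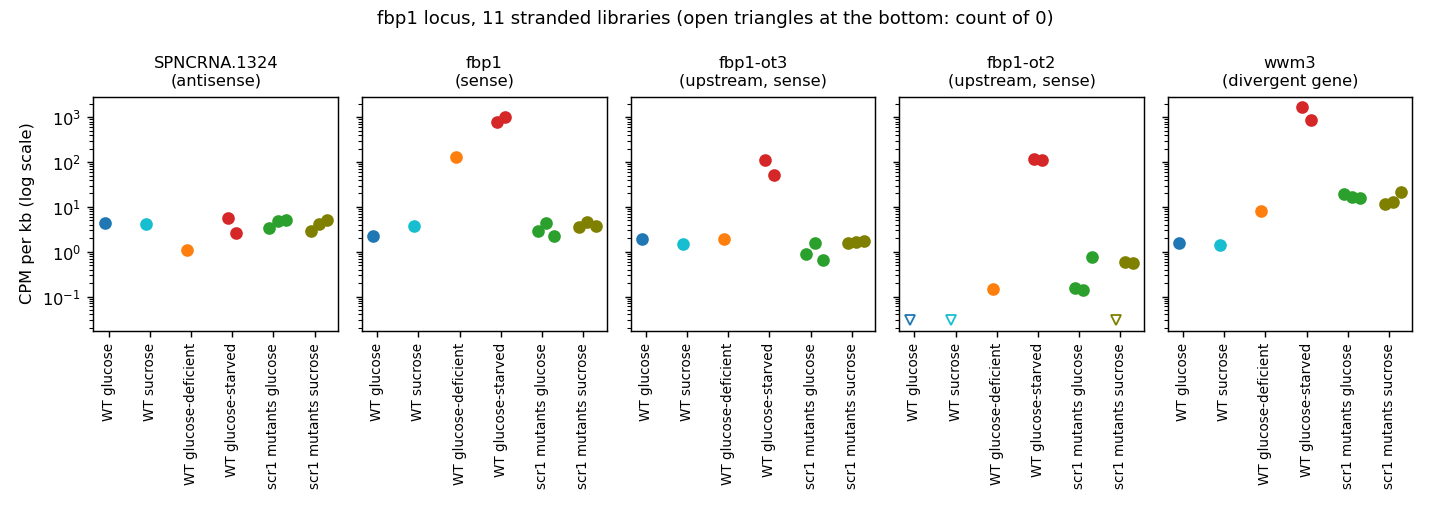
Levels per kilobase (CPM per kb, log axis) of 5 features of the fbp1 locus in the 11 stranded libraries, by group; each point is a library and open triangles mark a count of 0. fbp1 is raised in glucose-deficient and glucose-starved cells, fbp1-ot3 and fbp1-ot2 in glucose-starved cells, and the divergent gene wwm3 stands higher in all 6 scr1- libraries than in WT glucose and sucrose.

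The nearest protein-coding gene upstream is wwm3 (SPBC660.05, 202257 to 203623, plus strand), which points away from fbp1 across a gap of 2782 bases. Its levels followed carbon source and scr1. In WT glucose it had 9.13 CPM (unstranded) and 2.18 CPM (stranded), and in WT sucrose 7.57 and 1.91 CPM. Glucose-deficient cells had 21.8 CPM (unstranded) and 10.9 CPM (stranded), and glucose-starved cells 2287 and 1169 CPM.

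The mutants stood apart from WT at wwm3. In glucose its 4 mutant libraries had 64.1, 26.3, 22.7 and 21.2 CPM, and in sucrose 55.3, 15.5, 17.8 and 29.8 CPM, all above the WT libraries in the same media. Over all libraries the scr1 effect was 3.06 in glucose (SE 0.38, edgeR adjusted p = 0.000637) and 3.12 in sucrose (SE 0.39, adjusted p = 0.000898). Over stranded libraries alone the values were 3.53 and 3.59 and missed the threshold (adjusted p = 0.0612 and 0.0738). Within batches the log2 difference of scr1::ura4+ from WT was 2.81 (A) and 3.59 (B) in glucose, and 2.87 and 3.03 in sucrose. From glucose to starvation wwm3 rose by 9.28 (SE 0.51, adjusted p = 1.57e-07), and to glucose-deficient medium by 1.71 (SE 0.41, adjusted p = 0.0154), the latter lost over stranded libraries (2.50, adjusted p = 0.066).

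The downstream gene reb1 (SPBC1198.11c), which encodes a DNA-binding protein that ends ribosomal DNA transcription, had changes of −0.07 in glucose-deficient and 0.27 in glucose-starved cells and was called in neither (edgeR adjusted p = 0.846 and 0.233). Of the remaining neighbours within 5000 bases, wwm2 (SPBC660.06) rose by 1.57 in glucose-deficient (edgeR adjusted p = 0.0265) and by 2.75 in glucose-starved cells (adjusted p = 0.000212). Its scr1 effects of 0.90 and 0.70 did not pass the test. On the downstream side tfg2 rose by 1.56 on starvation (adjusted p = 0.000281) and had a change of 0.13 in glucose-deficient medium (adjusted p = 0.773). Over stranded libraries the glucose-deficient change of wwm2 missed the threshold (2.08, adjusted p = 0.106).

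The study's introduction names 4 genes as Scr1-regulated, of which fbp1 is 1. It sets fbp1 apart as poorly upregulated on scr1 loss, presumably because the gene needs induction by Rst2. The study also reported fbp1 as bound by Scr1 without a significant expression change in the mutant. The other 3 genes responded to scr1 in these same libraries. They are inv1 (invertase, which splits sucrose), gld1 (glycerol dehydrogenase) and ght5 (a hexose transporter). All 3 were called higher in glucose-deficient cells, in glucose-starved cells, and in scr1- mutants in glucose and in sucrose. Of all features 3.87%, 20.7%, 1.27% and 0.986% were called higher in these comparisons, in that order. The scr1 effect in glucose was 7.45 for inv1 (edgeR adjusted p = 0.00117), 5.21 for gld1 (adjusted p = 0.000231) and 4.80 for ght5 (adjusted p = 1.78e-05), beside −0.17 for fbp1.

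For gld1 the glucose-deficient change was 5.22 and the scr1 effect in glucose 5.21. The median of the list was 5.21 for scr1 in glucose, where that of all 5134 protein-coding genes was 0.01. In sucrose over the stranded libraries inv1 kept its call (8.50, adjusted p = 0.0166), and gld1 (4.43, adjusted p = 0.051) and ght5 (3.21, adjusted p = 0.0647) did not.

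**Figure D4:**
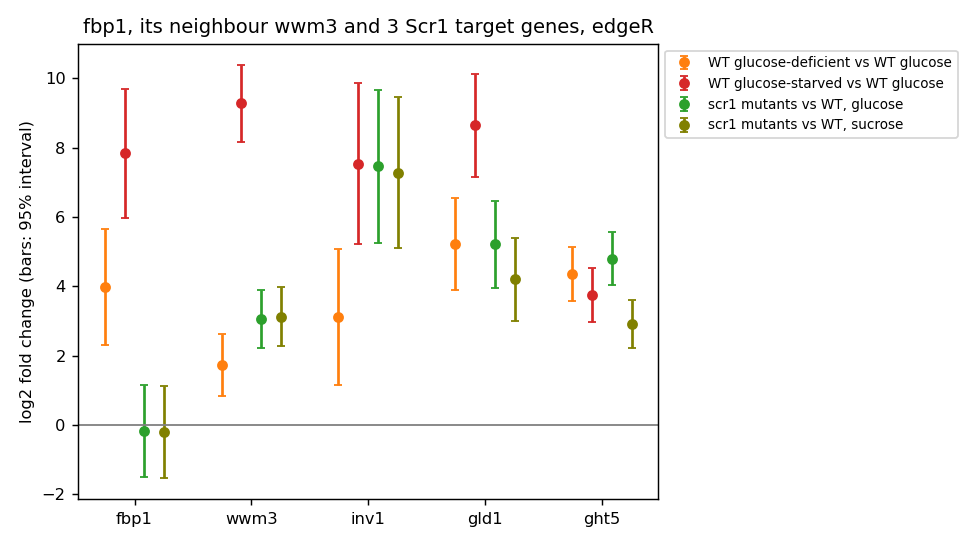
Log2 fold changes (edgeR, 16 libraries, bars 95% intervals) of fbp1, its divergent neighbour wwm3 and the Scr1 targets inv1, gld1 and ght5 in 4 comparisons. For fbp1 the 2 scr1 effects lie at −0.17 and −0.21 beside 3.97 and 7.83 in the glycerol media, whereas the scr1 effects of the other 4 genes lie between 2.91 and 7.45.

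Phosphofructokinase pfk1, the opposing enzyme, was not called in either glycerol medium. It had 1049 ± 115 CPM in WT glucose, 1418 ± 271 in glucose-deficient cells (SD, n = 2 each), and 1196 and 771 CPM in the glucose-starved libraries. Its changes of 0.39 and −0.10 against glucose did not pass the test (edgeR adjusted p = 0.308 and 0.75). Per kilobase, the fbp1 to pfk1 ratio was 0.0202 and 0.00787 in WT glucose and 0.0164 and 0.0107 in WT sucrose. It was 0.0666 and 0.271 in glucose-deficient cells and 2.17 and 4.30 in glucose-starved cells. In the 8 mutant libraries it ran from 0.00559 to 0.0198. Only the 2 glucose-starved libraries had more fbp1 than pfk1 transcript per length.

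**Figure D5:**
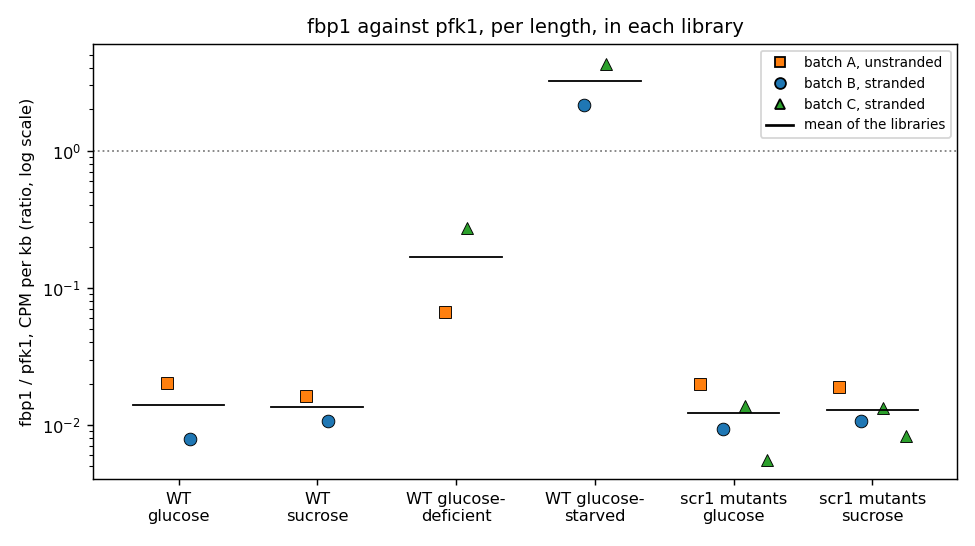
Ratio of fbp1 to pfk1, each as CPM per kilobase (log axis), in each of the 16 libraries; symbols mark batches, bars are group means and the dotted line is a ratio of 1. Ratios are 2.17 and 4.30 in glucose-starved cells, 0.0666 and 0.271 in glucose-deficient cells and at most 0.0202 elsewhere.

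The 11 other genes of glycolysis and gluconeogenesis had smaller log2 changes than fbp1 in both glycerol media. In glucose-deficient medium 3 of 11 were called higher and 0 lower by edgeR, where 3.87% and 3.71% of all features were, and DESeq2 called 5. These were tdh1 (1.79, edgeR adjusted p = 0.0186) and gpd3 (1.60, adjusted p = 0.00667), which encode glyceraldehyde-3-phosphate dehydrogenases, and the enolase gene eno102 (3.36, adjusted p = 0.0347). The other 8, pgi1, pfk1, fba1, tpi1, pgk1, gpm1, eno101 and pyk1, had values from −0.08 to 1.46. Over stranded libraries gpd3 was the 1 call. The list's median change was 0.94, against 0.03 over all protein-coding genes.

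On starvation 2 were called higher and 3 lower, 5 of 11 in a comparison that called 40.7% of all features (20.7% higher and 20% lower). The higher ones were eno102 (5.59, adjusted p = 0.000378) and gpd3 (1.69, adjusted p = 0.000594). The pyruvate kinase gene pyk1, whose step is irreversible in the glycolytic direction, fell by 1.84 (adjusted p = 2.56e-05). The phosphoglycerate mutase gene gpm1 fell by 1.82 (adjusted p = 0.000527) and the triosephosphate isomerase gene tpi1 fell by 1.13 (adjusted p = 0.000835). The median was −0.24 beside −0.10 over all genes. Loss of scr1 gave 0 calls among the 11 in either medium by edgeR and by DESeq2, with 1 at an unadjusted edgeR p under 0.05 in glucose and 2 in sucrose, and with gpd3 nearest in glucose (0.98, adjusted p = 0.0974). Of all features edgeR called 1.84% in glucose and 1.57% in sucrose.

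Genes of the steps that link glycerol and triose phosphate, in either direction, were followed as a list of 6. In glucose-deficient medium gld1 and the dihydroxyacetone kinase gene dak1 (2.42, edgeR adjusted p = 0.00179) were called higher (3.87% of all features were), and on starvation 5 of 6 were (20.7% of all features), with a median of 3.20. Besides gld1 (8.64) and dak1 (2.32) these were the second kinase gene dak2 (3.55), the mitochondrial glycerol-3-phosphate dehydrogenase gene gut2 (5.27) and the cytosolic dehydrogenase gene gpd1 (2.84), all with edgeR adjusted p at or under 0.000483. The sixth gene, gpd2, had 0.24 and 0.65 in these media. With scr1 lost, gld1 was the 1 edgeR call of 6 in each medium, where 1.84% (glucose) and 1.57% (sucrose) of all features were called. DESeq2 called dak2 as well in glucose, where its edgeR value was −1.51 (adjusted p = 0.16), and gut2 had 2.13 and 1.94 without passing the test (adjusted p = 0.2 and 0.225).

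Several genes for transcription factors that act on fbp1 rose in starved cells. The corepressor genes tup11, tup12 and ssn6 were not called, with changes under the log2 threshold of 1. On starvation 5 of the 10 genes for factors and corepressors were called higher and 0 lower, with a median of 1.41, where 20.7% of all features were called higher and 20% lower. They were rst2 (2.22, edgeR adjusted p = 8.45e-07), atf1 (2.37, adjusted p = 0.000104), pcr1 (2.99, adjusted p = 2.33e-06), php3 (2.09, adjusted p = 8.3e-06) and scr1 itself (2.08, adjusted p = 3.1e-05). The other 5 had values of 0.63 (tup11), 0.62 (tup12), 0.75 (ssn6), 0.45 (php5) and −0.13 (php2). Of the 10, 8 had an unadjusted edgeR p under 0.05, beside 4471 of all 6691 features. By DESeq2 8 had an adjusted p under 0.05, beside 4306 of the 6691. The level of rst2 went from 88.3 CPM in WT glucose to 133 in glucose-deficient and 448 in glucose-starved cells, and its glucose-deficient change of 0.40 did not pass the test (adjusted p = 0.107).

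In glucose-deficient medium 2 of 10 were called, scr1 (1.92, adjusted p = 0.000865) and php2 (1.53, adjusted p = 0.0138), both higher, where 3.87% of all features were. The php2 change was 4.84-fold in batch A and 1.53-fold between the stranded libraries, where its call was lost (0.26, adjusted p = 0.464). The scr1- mutants had 1 call of 10 in each medium, the feature of the targeted gene. Of all features 1.84% were called in glucose and 1.57% in sucrose. In the mutants rst2 had 0.70 in glucose (adjusted p = 0.0202) and 0.75 in sucrose (adjusted p = 0.0166), under the log2 threshold of 1 in both media. Over stranded libraries neither passed (adjusted p = 0.324 and 0.135).

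The glucose-sensing cAMP pathway was defined genetically through fbp1 reporters, and its 10 genes showed 0 calls in glucose-deficient medium by edgeR and by DESeq2, with 3 at an unadjusted edgeR p under 0.05. Of all features edgeR called 7.58% there. The genes git3 (0.56, edgeR adjusted p = 0.043) and gpa2 (−0.65, adjusted p = 0.0432) missed only the log2 threshold. On starvation 6 of the 10 were called higher, with a median of 1.22, where 20.7% of all features were called higher. The other 4 were the adenylate cyclase gene cyr1 (0.996), the receptor gene git3 (0.83), git1 (0.67) and git7 (−0.73). The catalytic subunit gene pka1 rose by 3.51 (edgeR adjusted p = 7.98e-07) and cgs1, which encodes its inhibitory regulatory subunit, by 4.11 (adjusted p = 1.97e-06). The G protein genes gpa2 (alpha subunit, 1.04), git5 (beta subunit, 2.69) and git11 (gamma subunit, 2.16) also rose, as did the cAMP phosphodiesterase gene cgs2 (1.40). In the scr1- mutants cgs2 was the 1 call of 10 in each medium, where 1.84% (glucose) and 1.57% (sucrose) of all features were called. It rose by 1.21 in glucose (adjusted p = 8.74e-05) and by 1.22 in sucrose (adjusted p = 0.000112). Its stranded values were 1.13 (adjusted p = 0.049) and 1.24 (adjusted p = 0.051). Of 4 kinase genes, sty1, wis1, wis4 and ssp2, 1 was called on starvation, where 40.7% of all features were, ssp2 for the AMP-activated kinase (1.60, adjusted p = 2.29e-05). In glucose-deficient medium and in the scr1- mutants against WT in each medium 0 of the 4 were called by edgeR or DESeq2, with 1 at an unadjusted edgeR p under 0.05 in each comparison. Of all features edgeR called 7.58% in glucose-deficient medium, and 1.84% (glucose) and 1.57% (sucrose) in the mutants.

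The protein-coding gene with the pattern most like that of fbp1 was mug147 (SPBC56F2.06, chromosome II 4104214 to 4106013). Likeness was Pearson's correlation of log2 CPM over the 16 libraries, which share batches and depth, among 5133 genes. Its correlation was 0.992, and mug147 had 398 and 426 CPM in the glucose-starved libraries. It had 20.6 (unstranded) and 63.3 CPM (stranded) in the glucose-deficient libraries and 3.02 to 9.61 CPM in the other 12, a lower level than fbp1 in both glucose-starved and both glucose-deficient libraries. Next were SPAC12B10.01c (0.987), fun14 (0.983), SPAC4F10.17 (0.978) and the pyruvate decarboxylase gene pdc201 (0.976). A correlation above 0.9 was reached by 222 genes. mug147 stayed first after batch adjustment and over stranded libraries, and was 12th by Spearman's correlation and 5th over the 6 group means.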

How the data were processed

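The deposited values were raw read counts per feature. The authors prepared ribo-depleted total RNA with unstranded (batch A) or stranded kits (batches B and C), aligned reads with TopHat2 2.1.1 and counted them with featureCounts 1.5.2 on ASM294v2, letting reads count for every overlapping feature and mapping place. Strand was used only for stranded libraries. Counts at fbp1 therefore include antisense reads in 5 of 16 libraries.

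Counts were tested with edgeR 4.0.16 (R 4.3.3): filterByExpr, TMM, 6 groups plus batch, quasi-likelihood F test, Benjamini-Hochberg over 6691 features (6585 over stranded libraries), calls at adjusted p under 0.05 and absolute log2 fold change above 1. The SE is the log2 fold change divided by the root of F. CPM per kb is CPM over feature length, and correlations used log2 CPM with a prior count of 2. Totals were 14305848 to 18607823 counts. The fit was tested on simulated data. Alternatives were DESeq2 1.42.0, other scalings, filters, covariates and subsets. By rule, fbp1 was described fully, with the features within 5000 bases of it, the lists given (as counts, naming the members called) and the 5 genes most like it. The gene, lists and tests were chosen with earlier results of these data known. Sequences came from RefSeq ASM294v3, where 99.5% of 5136 protein-coding genes keep a start or end of the table. No protein sequence was used here.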

Additional observations from a re-analysis of the deposited data

Results flagged for a closer look

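Among 30 checks of 4-library mutant groups, 7 had a library far from the other 3, where chance gives about 5% of groups, and in each it was the unstranded scr1::ura4+ library. For fbp1-ot3 that library had 8.06 CPM in glucose (others 0.764 to 1.83) and 9.18 in sucrose (others 1.75 to 2.02). For mfr1 it had 15.5 CPM in glucose (others 0.144 to 0.555) and 13.3 in sucrose (others 0.200 to 0.392). For wwm3 it had 64.1 CPM in glucose (others 21.2 to 26.3). For SPAC4F10.17 it had 3.94 CPM in glucose (others 0.694 to 1.01) and 4.53 in sucrose (others 0.914 to 1.33). The fbp1 groups were not among the 7. None of 52 tests of the scr1 effect between sucrose and glucose on fbp1, its neighbours and the listed genes passed by edgeR (smallest adjusted p = 1), 1 had an unadjusted p under 0.05, and DESeq2 called 1, ght5.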

How the results depend on the processing

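Of the fbp1 contrasts, glucose-starved against glucose kept its direction and, where tested, its call in 30 of 30 alternatives, and so did scr1- glucose against glucose-starved. The glucose-deficient rise lost its call with WT libraries alone (3.08), with disruption (3.10) or deletion (3.09) as the only mutants and without the stranded WT glucose library (3.53), and within batch A it was 1.83. The glucose-starved against glucose-deficient difference was 2.93 within batch C. For scr1- glucose against glucose-deficient, the disruption alone gave −3.01 without a call, and batches A and C gave −1.85 and −5.35. Uncalled differences changed sign around 0. The scr1 effect in glucose was 0.09047 with the disruption alone, 0.31 over stranded libraries and 0.49 over these without batch, an alternative chosen after seeing the data, under which the effect in sucrose was 0.09143. With the deletion alone these effects were −1.683 and −1.586, uncalled. The difference between these effects was 0.001027 with library totals, 0.02587 without batch and 0.09678 with the deletion alone. With a replicate block in place of batch it was 0.005108, and the block changed no call. Same-numbered libraries share a batch in part, and their deviations correlated from −0.0881 to 0.972, so the numbers do not pair the samples.

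Leaving out 1 library at a time gave −0.1727 to 0.8055 for sucrose against glucose in WT, 1.97 to 5.27 for glucose-deficient against glucose, −5.238 to −1.937 for scr1- glucose against glucose-deficient, −0.6287 to 0.3869 and −0.4477 to 0.002207 for the scr1 effect in glucose and sucrose, −0.02299 to 0.5134 for mutants in sucrose against glucose and −0.5927 to 0.388 for the difference of the effects. A group of 2 is then left with 1 library, assumed to vary like the others. The cause of these changes was not tested. With raw counts the mean fbp1 to pfk1 ratio was 1.75 in glucose-starved cells in place of 3.23. In glucose and sucrose fbp1 had 58 to 256 counts per library, and the SD of its log2 CPM between replicates, pooled over the 8 label groups, was 0.885. DESeq2 called 5 in place of 3 of the glycolysis genes in glucose-deficient medium.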
